A study of Mus musculus with 21 samples.

Results

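The TNF superfamily was examined here in the mouse MT-ret melanoma model, across the tumor microenvironment (TME) of lung metastases and of primary tumors, unchallenged lung and sorted malignant melanoma (MM) cells. Members were taken by symbol, as *Tnf* itself and every gene whose symbol starts with Tnfsf or Tnfrsf and a number. The rule found 33 of the 32285 genes in the count table, of which 12 were ligands, 20 were receptors and 1 was *Tnfsf13os*, an antisense transcript named after *Tnfsf13*. Together they took up 150696 of 328241012 UMIs (unique molecular identifiers, each a counted RNA molecule), with 32 to 31727 per member. Superfamily genes with other kinds of symbols (14 genes, among them *Fas*, *Cd40* and *Ltb*) were not members and were looked at as a separate list.

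TNF superfamily ligands are mostly type II membrane proteins that act as trimers, on the cell surface or after they are cut off, and their receptors carry cysteine-rich domains outside the cell. Receptors with a death domain, such as *Tnfrsf1a*, can lead to NF-κB activity or to cell death, whereas most others bind TRAF adaptors directly and feed NF-κB and survival signals, and a few are decoys. In lung and in tumors the family is known above all from leukocytes, which produce TNF, and from blood vessels, which answer it with adhesion molecules and chemokines.

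All hosts were mT/mG mice, which carry a membrane tdTomato in every cell because no Cre was present. Mice of the tumor groups, males and females of 8 to 10 weeks at that time, received fragments of MT-ret melanoma under the skin, the primary tumor was cut out, and metastases then grew in the lung, while unchallenged lung came from mice without a tumor. Living tdTomato+ host cells were sorted, for part of the material as CD45- only, and tdTomato- MM cells were kept as libraries of their own. The sources used here do not give which library had the CD45 gate, so levels within a cell type are compared below and shares of leukocytes are not. The primary tumors were subcutaneous and the other tissues were lung. Organ therefore cannot be told apart from tumor in primary tumor against unchallenged lung. In metastasis against primary tumor it cannot be told apart from the tumor's site as a metastasis. Metastasis against unchallenged lung stayed within 1 organ. By the paper, the metastasis samples also held some adjacent tissue that was not tumor. Cells named in metastasis TME included 357 ciliated airway cells and 190 alveolar type II cells. The part of adjacent lung in the metastasis levels below was not tested.

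After identical libraries were counted once, 16 libraries with 100359 cells remained, with 4 from metastasis TME, 4 from primary tumor TME, 4 from unchallenged lung and 2 each from MM cells of metastases and of primary tumors. They held 1777036 to 60339415 UMIs, and the median cell had 1203 UMIs in the shallowest library, primary tumor TME replicate 6, and 5356 in the deepest. Libraries numbered 1-3 were summed here from 2 deposited names for metastasis and 3 for primary tumor, of 1 mouse each, because the labels list them as 1 sample. Every other library kept stands for 1 name and 1 mouse. The libraries of replicates 5 and 6 of both TME groups were also deposited under the names of 2 other mice, and metastasis TME replicate 6 under an MM name too, so their mouse is uncertain. That library was kept as TME, and 11 of its 1036 cells were in MM clusters. In metastasis TME replicate 5, 2042 of 5166 cells were in MM clusters, with 17436123 of its 27672199 UMIs. Cells of MM clusters were part of no host cell class. Library pairs shared at most 1.47% of the cell barcodes of the smaller one (4 barcodes in that pair). Clusters were named from marker genes, and *Tnf* superfamily genes were kept out of the clustering. Those left unnamed held 1160 cells of metastasis TME, 301 of primary tumor TME and 33 of unchallenged lung. These cells entered no cell class or cell type of the main clustering. The largest unnamed cluster, with 2076 cells, was led by *Bche*, *Cspg4* and *Wnt4*. One library stood apart: in unchallenged lung replicate 6, *Tnf* was counted at 6.72 to 33 CPM (UMIs scaled to a sum of 1000000) in 7 cell types that are not leukocytes (median 27.2), against a median of 1.57 over 15 such values of the other unchallenged lungs. The same medians were 113 and 13.4 CPM for *Tnfrsf1b* and 41.5 and 5.22 CPM for *Tnfrsf21*. This library was the second shallowest (1605 UMIs per median cell), and a level that it moved by over 1.5 times is given with its value without that library.

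The members lie on 11 chromosomes, with 9 of the 33 on chromosome 4 and 5 on chromosome 17 (GENCODE vM21 annotation of GRCm38). Several are neighbors: *Tnfrsf26*, *Tnfrsf22* and *Tnfrsf23* stand in a row between 143607659 and 143685872 on chromosome 7, and *Tnfrsf4* (from 156013843) precedes *Tnfrsf18* (to 156028895) on chromosome 4. *Tnfrsf22* and *Tnfrsf23*, decoy receptors for TRAIL, and *Tnfrsf26* are close copies, so a read that fits more than 1 of them can be lost or misplaced, and their counts are uncertain to that extent. *Tnfsf13os* (69682138 to 69691141 on chromosome 11, plus strand) covers the whole of *Tnfsf13* and a stretch of *Tnfsf12* on the opposite strand.

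Promoter windows from 250 bases before to 50 bases after each start were read from RefSeq on GRCm38.p6 for 25 members, which have 29 such windows. The windows of 4 genes are shown because the levels and comparisons below turn on these genes: the ligands *Tnf* and *Tnfsf10* and the receptors *Tnfrsf1b* and *Tnfrsf9*. Motifs were searched on both strands as GGG and TTCC with 3 free bases between them (kappaB), GAAA and GAAA with 2 free bases between them (interferon regulatory factor, IRF) and TGANTCA (AP-1), where N is any base. Capitals mark the matches. The windows are *Tnf* at chr17:35201958-35202257 on the minus strand, *Tnfsf10* at chr3:27316827-27317126 on the plus strand, *Tnfrsf1b* at chr4:145246821-145247120 on the minus strand and the second annotated start of *Tnfrsf9* at chr4:150927749-150928048 on the plus strand.
Tnf: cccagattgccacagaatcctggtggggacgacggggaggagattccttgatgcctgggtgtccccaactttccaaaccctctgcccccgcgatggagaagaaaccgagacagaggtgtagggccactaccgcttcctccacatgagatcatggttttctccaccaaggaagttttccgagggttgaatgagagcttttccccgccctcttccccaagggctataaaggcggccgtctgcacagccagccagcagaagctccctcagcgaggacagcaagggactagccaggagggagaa
Tnfsf10: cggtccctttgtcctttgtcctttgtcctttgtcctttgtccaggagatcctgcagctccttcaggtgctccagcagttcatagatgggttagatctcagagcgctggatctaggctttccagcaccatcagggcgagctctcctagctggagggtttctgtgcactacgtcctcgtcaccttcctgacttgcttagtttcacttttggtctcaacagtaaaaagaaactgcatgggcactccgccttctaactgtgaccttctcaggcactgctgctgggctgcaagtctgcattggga
Tnfrsf1b: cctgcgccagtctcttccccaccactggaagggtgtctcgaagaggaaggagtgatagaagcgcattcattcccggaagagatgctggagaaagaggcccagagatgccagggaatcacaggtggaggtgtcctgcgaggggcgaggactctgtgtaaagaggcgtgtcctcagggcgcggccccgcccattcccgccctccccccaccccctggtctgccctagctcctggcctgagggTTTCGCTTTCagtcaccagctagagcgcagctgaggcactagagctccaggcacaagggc
Tnfrsf9: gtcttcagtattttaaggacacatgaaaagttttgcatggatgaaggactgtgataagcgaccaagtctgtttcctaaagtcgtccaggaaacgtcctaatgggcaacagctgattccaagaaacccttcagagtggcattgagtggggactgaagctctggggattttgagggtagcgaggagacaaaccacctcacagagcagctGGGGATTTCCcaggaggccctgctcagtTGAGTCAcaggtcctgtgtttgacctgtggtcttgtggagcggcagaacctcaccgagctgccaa
In this *Tnfrsf9* window the kappaB letters lie from base -43 to -34 and the AP-1 letters from -15 to -9, where -1 is the last base before the start, and the motifs do not overlap. In *Tnfrsf1b* the IRF letters lie on the other strand from base -10 to -1. The windows of *Tnf* and *Tnfsf10*, and that of the first annotated start of *Tnfrsf9*, hold none of the 3 letter patterns. Over all members, 2 windows held kappaB (*Tnfrsf9* and *Tnfrsf25*), 4 held IRF (*Tnfrsf14*, *Tnfrsf17*, *Tnfrsf1b* and *Tnfsf13b*) and 6 held AP-1 (in *Tnfrsf8*, *Tnfrsf9*, *Tnfsf13*, *Tnfsf13b* and *Tnfsf14*). Among all 32851 windows, 5.56% held kappaB, 3.44% held IRF and 7.81% held AP-1.

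*Tnf*, the founding ligand, was counted mainly in leukocytes. Levels are means over the libraries with at least 20 cells of a type, in CPM, and they compare 1 gene across cell types, never different genes. *Tnf* stood at 86.4 ± 30.2 CPM (SD, n = 7) in nonclassical monocytes, 83.6 ± 43.7 CPM (SD, n = 8) in neutrophils and 65.1 ± 48.1 CPM (SD, n = 8) in C1q macrophages, the tissue macrophages marked by complement C1q. T cells followed with 47.4 ± 21.9 CPM and classical monocytes with 46.8 ± 17.5 CPM. Neighbors in this order differed by less than their SDs. Dendritic cells had 45.4 ± 25.5 CPM, alveolar macrophages 27.6 ± 11.2 CPM and B cells 27.4 ± 22 CPM. In fibroblasts the mean was 3.88 CPM (0.552 without unchallenged lung replicate 6), in general capillary endothelial cells (ECs) 1.30 CPM (0.531), and in sorted MM cells 3 UMIs of *Tnf* were counted in 47917 cells.

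The share of cells with a UMI of *Tnf* showed the same contrast. With every cell thinned to 1000 UMIs, *Tnf* was seen in 7.52% ± 3.12 (SD over libraries) of nonclassical monocytes, 6.89% ± 3.10 of neutrophils and 6.53% ± 4.42 of C1q macrophages, which is 23.9%, 12.6% and 17.9% without thinning. Cells where little *Tnf* is known gave the background, from 0.155% ± 0.391 after thinning and 0.271% before in general capillary ECs to 1.43% ± 1.78 and 3.24% in club cells, secretory cells of the airway. NK cells, at 1.10% ± 1.19 after thinning, and B cells, at 1.56% ± 1.90, did not stand above the club cells beyond their spread. These shares include unchallenged lung replicate 6. Without that library the mean level of *Tnf* went from 10.5 to 3.61 CPM in club cells and from 9.36 to 3.79 CPM in NK cells. The cells used had median depths of 4236 UMIs in nonclassical monocytes, 3192 UMIs in general capillary ECs and 2224 UMIs in club cells.

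The 2 receptors of TNF were spread differently over the cell types. *Tnfrsf1a*, the death domain receptor TNFR1, was counted in every cell type: 232 ± 67.4 CPM (SD, n = 8) in neutrophils, 212 ± 25.6 CPM (SD, n = 8) in general capillary ECs, 184 ± 44.5 CPM (SD, n = 11) in the *Vwf*-high ECs (the cluster led by *Slc6a2* and *Vwf*) and 181 ± 47.7 CPM (SD, n = 7) in nonclassical monocytes. Fibroblasts had 104 ± 26.3 CPM, C1q macrophages 103 ± 26.5 CPM and sorted MM cells 72.8 ± 24.8 CPM, and the lowest level was 22.6 ± 22.3 CPM in B cells (13.3 without unchallenged lung replicate 6). *Tnfrsf1b*, the TRAF-binding receptor TNFR2 that lacks a death domain, was concentrated in myeloid cells, with 505 ± 112 CPM (SD, n = 7) in nonclassical monocytes and 305 ± 85 CPM (SD, n = 7) in classical monocytes, whose means differ by more than the SD of either. Neutrophils had 167 ± 28 CPM and alveolar macrophages 146 ± 21.2 CPM, which overlap, while sorted MM cells had 11.6 ± 5.11 CPM and aerocyte ECs, the gas-exchange capillary cells, 9.72 ± 12.7 CPM (5.03 without unchallenged lung replicate 6). Thinned to 1000 UMIs, 39.4% ± 5.93 of nonclassical monocytes and 1.06% ± 1.46 of aerocyte ECs had a UMI of *Tnfrsf1b* (76.4% and 2.88% unthinned, at median depths of 4236 and 3099 UMIs), with that library included.

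**Figure D1:**
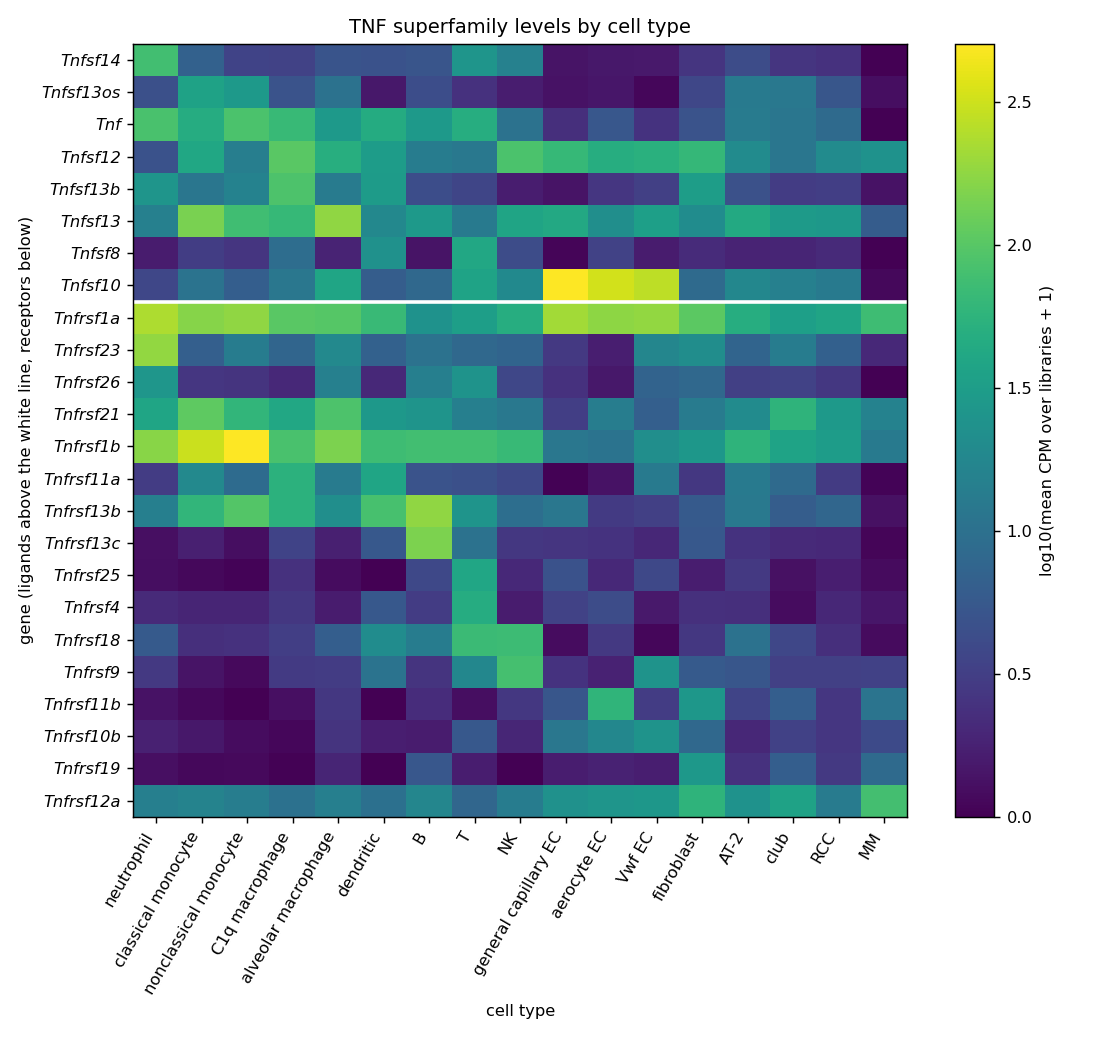
Mean level (CPM, log scale of color) of each *Tnf* superfamily member that reached 20 CPM in at least 1 cell type, with genes in rows and cell types in columns. *Tnf* is high across the myeloid columns, *Tnfsf10* in the 3 EC columns, and *Tnfrsf1a* has a value in every column, from 22.6 CPM in B cells to 232 CPM in neutrophils.

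Among the other ligands, *Tnfsf10* (TRAIL, which triggers apoptosis through death receptors) was the endothelial one. It stood at 498 ± 198 CPM (SD, n = 8) in general capillary ECs, 328 ± 124 CPM (SD, n = 6) in aerocyte ECs and 272 ± 225 CPM (SD, n = 11) in *Vwf*-high ECs, and no other cell type had a mean over 37.6 CPM. The wide SD of the *Vwf*-high ECs comes with tissue, as described below. *Tnfsf12* (TWEAK, the ligand of Fn14) reached 20 CPM in 10 cell types and was lowest in neutrophils, at 3.79 CPM. It stood at 101 ± 35.1 CPM in C1q macrophages, 84.9 ± 28.7 CPM in NK cells, 64.6 ± 14 CPM in general capillary ECs and 63 ± 37.8 CPM in fibroblasts. *Tnfsf13* (APRIL) and *Tnfsf13b* (BAFF), which keep B cells and plasma cells alive, came from different myeloid cells. *Tnfsf13* was highest in alveolar macrophages (179 ± 50.3 CPM (SD, n = 5)) and classical monocytes (143 ± 28.3 CPM (SD, n = 7)), and *Tnfsf13b* in C1q macrophages (86.9 ± 53 CPM (SD, n = 8)), with 30.7 ± 29.4 CPM in fibroblasts.

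*Tnfsf14* (LIGHT, a T cell costimulator) was a neutrophil transcript at 76 ± 25.2 CPM (SD, n = 8), with 25 ± 2.92 CPM in T cells and 14.5 ± 5.80 CPM in NK cells. *Tnfsf8* (CD30 ligand) was highest in T cells (40.4 ± 17.2 CPM (SD, n = 5)) and dendritic cells (22.5 ± 16.1 CPM). *Tnfsf13os* was highest in classical monocytes (34.9 ± 15.3 CPM) and nonclassical monocytes (28.1 ± 10.6 CPM), and the sources used here do not say whether its reads were told apart from those of *Tnfsf13* by strand.

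Receptors of lymphocytes were highest in B, T and NK cells. *Tnfrsf13b* (TACI) and *Tnfrsf13c* (BAFF receptor) were highest in B cells, at 178 ± 58 CPM (SD, n = 5) and 149 ± 71.2 CPM (SD, n = 5). Outside B cells *Tnfrsf13c* had at most 9.43 CPM, in T cells (5.38 without metastasis replicate 1-3), whereas *Tnfrsf13b* was also counted at 94.8 ± 35.2 CPM in nonclassical monocytes, 81.7 ± 8.29 CPM in dendritic cells and 59.4 ± 12.6 CPM in classical monocytes. The costimulatory receptor *Tnfrsf18* (GITR) was at 71.2 ± 22.6 CPM in NK cells and 69.2 ± 23.6 CPM in T cells (n = 5 each), which do not differ beyond their spread, and *Tnfrsf25* (DR3) at 39 ± 11.6 CPM in T cells. *Tnfrsf4* (OX40) averaged 45.9 ± 60.8 CPM in T cells, an SD above its mean, and 19 CPM without metastasis replicate 1-3. *Tnfrsf9* (4-1BB), another costimulatory receptor, was highest in NK cells (79.4 ± 33.6 CPM (SD, n = 5)), and the *Vwf*-high ECs came next with 23.6 ± 25.7 CPM (SD, n = 11).

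Receptors of myeloid and stromal cells made up the rest. *Tnfrsf21* (DR6) was highest in classical monocytes (107 ± 28.2 CPM) and alveolar macrophages (88 ± 13 CPM), and *Tnfrsf11a* (RANK) in C1q macrophages (53.2 ± 16.5 CPM) and dendritic cells (37.7 ± 16.7 CPM). *Tnfrsf23* reached 184 ± 121 CPM (SD, n = 8) in neutrophils, against at most 20.1 CPM elsewhere, and *Tnfrsf26* 25.3 ± 27.6 CPM in neutrophils and 23.4 ± 9.73 CPM in T cells. *Tnfrsf11b* (osteoprotegerin, a secreted decoy for RANKL) was at 57.3 ± 31.3 CPM (SD, n = 6) in aerocyte ECs and 25.9 ± 36.7 CPM (SD, n = 8) in fibroblasts, where the mean without primary tumor replicate 5 was 13.6 CPM. *Tnfrsf10b* (the TRAIL receptor DR5) was highest in *Vwf*-high ECs (23.6 ± 10.3 CPM), and *Tnfrsf19* (TROY) in fibroblasts (26.6 ± 44 CPM (SD, n = 8)). The mean of *Tnfrsf19* was 11.9 CPM without unchallenged lung replicate 4, which had 129.5 CPM. *Tnfrsf12a* (Fn14, the TWEAK receptor) was highest in sorted MM cells (78.1 ± 28.4 CPM (SD, n = 4)), with 57.1 ± 31.6 CPM in fibroblasts. The other 9 members stayed under 20 CPM in every cell type, with top means from 0.786 CPM (*Tnfsf18*, in fibroblasts, 0.513 without primary tumor replicate 5) to 16.4 CPM (*Tnfsf9*, in dendritic cells, 9.41 without primary tumor replicate 4).

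Leukocytes were then set against the other named host cells of the same library, in the 10 libraries with at least 20 cells of either kind. Cells of MM clusters and of unnamed clusters were left out of both sides. The leukocytes included a cluster named alveolar macrophage that also raised 5 of 9 aerocyte EC markers, as described below. Of the 33 members 19 had enough counts to be tested, and 14 passed: 12 were higher in leukocytes and 2 lower. Among all genes tested 58.1% passed, 32.4% as higher and 25.7% as lower. *Tnf* was at 25.4 to 94.8 CPM (median 46.8) in leukocytes and 0 to 30.7 CPM (median 1.39) in the other host cells, higher in leukocytes in 10 of 10 libraries (log2 fold 4.51, SE 0.71, edgeR's adjusted p = 2.06e-04 by the quasi-likelihood test, Benjamini-Hochberg over all genes). The 2 ranges overlapped only through unchallenged lung replicate 6, whose other host cells gave the 30.7 CPM. *Tnfrsf1b* was at 95.4 to 331 CPM (median 146) in leukocytes and 4.25 to 125 CPM (median 11.7) in the other host cells (log2 fold 3.97, SE 0.41, edgeR's adjusted p = 2.67e-05) and also higher in all 10 libraries.

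*Tnfrsf1a* did not pass, at 66.1 to 161 CPM (median 119.6) in leukocytes and 68.7 to 238 CPM (median 155) in the other host cells (log2 fold -0.04, SE 0.22, edgeR's adjusted p = 0.908), and leukocytes were the higher side in 4 of 10 libraries. *Tnfsf10* was lower in leukocytes in 10 of 10 libraries, at 2.35 to 42 CPM (median 12.1) in leukocytes and 23 to 544 CPM (median 157) in the other host cells (log2 fold -3.64, SE 0.53, edgeR's adjusted p = 1.18e-04), and so was *Tnfrsf11b*, at 0 to 3.26 CPM (median 0.591) in leukocytes and 2.83 to 18.1 CPM (median 12.4) in the other host cells (log2 fold -3.70, adjusted p = 6.04e-04). The other 10 that passed as higher were *Tnfrsf11a*, *Tnfrsf13b*, *Tnfrsf18*, *Tnfrsf21*, *Tnfrsf23*, *Tnfrsf26*, *Tnfsf13*, *Tnfsf13b*, *Tnfsf13os* and *Tnfsf14*. *Tnfrsf26* no longer passed without unchallenged lung replicate 5 (adjusted p = 0.0504), and *Tnfrsf23* lost its call without that library (adjusted p = 0.129) and without any of 5 others.

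In ECs, *Tnfsf10* was lower and *Tnfrsf9* higher in primary tumor than in unchallenged lung, and *Tnfsf10* was higher in metastasis than in primary tumor. The question was how ECs of the 3 tissues differ, over 4 libraries each. Of the 33 members 11 were tested; a member listed mainly in 1 tissue passes the count filter through that tissue. Between primary tumor and unchallenged lung 7 of the 11 passed (background 27.8% of all genes tested), with 4 higher and 3 lower in primary tumor. Between metastasis and primary tumor 3 of 11 passed (background 11.6%), and between metastasis and unchallenged lung 2 of 11 (background 3.24%). The comparisons share libraries and are not independent of each other. P-values here and below measure the spread between these libraries, which carry the name of 1 mouse each except those numbered 1-3.

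*Tnfsf10* in ECs stood at 614, 489.7, 597 and 441 CPM in unchallenged lung replicates 1, 4, 5 and 6, at 490.1, 238, 177 and 203 CPM in metastasis replicates 1-3, 4, 5 and 6, and at 119.8, 56, 53.9 and 58.1 CPM in primary tumor replicates 1-3, 4, 5 and 6. Primary tumors lay below all libraries of both other tissues. Within each replicate number the order lung, metastasis, primary tumor held. By the library names the 4 numbers stand for 3 runs, since 5 and 6 shared 1. *Tnfsf10* was lower in primary tumor than in unchallenged lung (log2 fold -2.87, SE 0.33, edgeR's adjusted p = 2.76e-05) and higher in metastasis than in primary tumor (log2 fold 1.90, SE 0.33, edgeR's adjusted p = 0.00183), while metastasis against unchallenged lung did not pass (log2 fold -0.96, SE 0.30, edgeR's adjusted p = 0.107).

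*Tnfrsf9* was near absent from ECs of unchallenged lung, at 0, 0.287, 0.504 and 0.819 CPM, and present in those of primary tumor, at 39.9, 21.6, 25.5 and 58.8 CPM, with no overlap (log2 fold 6.59, SE 0.81, edgeR's adjusted p = 4.22e-05). In metastasis the values were 0, 3.05, 39.1 and 24.4 CPM in replicates 1-3, 4, 5 and 6, so that replicates 5 and 6 were high and replicate 1-3 had no UMI. The comparison with unchallenged lung passed (log2 fold 5.81, SE 0.81, edgeR's adjusted p = 0.00143) although these ranges overlap. NK cells were the cell type with the highest *Tnfrsf9*. In the ECs the summed level of 9 NK markers was 0 to 4.26 CPM in primary tumor, 0.352 to 120.3 CPM in metastasis and 2.01 to 172 CPM in unchallenged lung, and that of 9 T cell markers 2.84 to 20.0, 24.4 to 295 and 28.5 to 309.7 CPM. Their part in the *Tnfrsf9* levels was not tested.

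**Figure D2:**
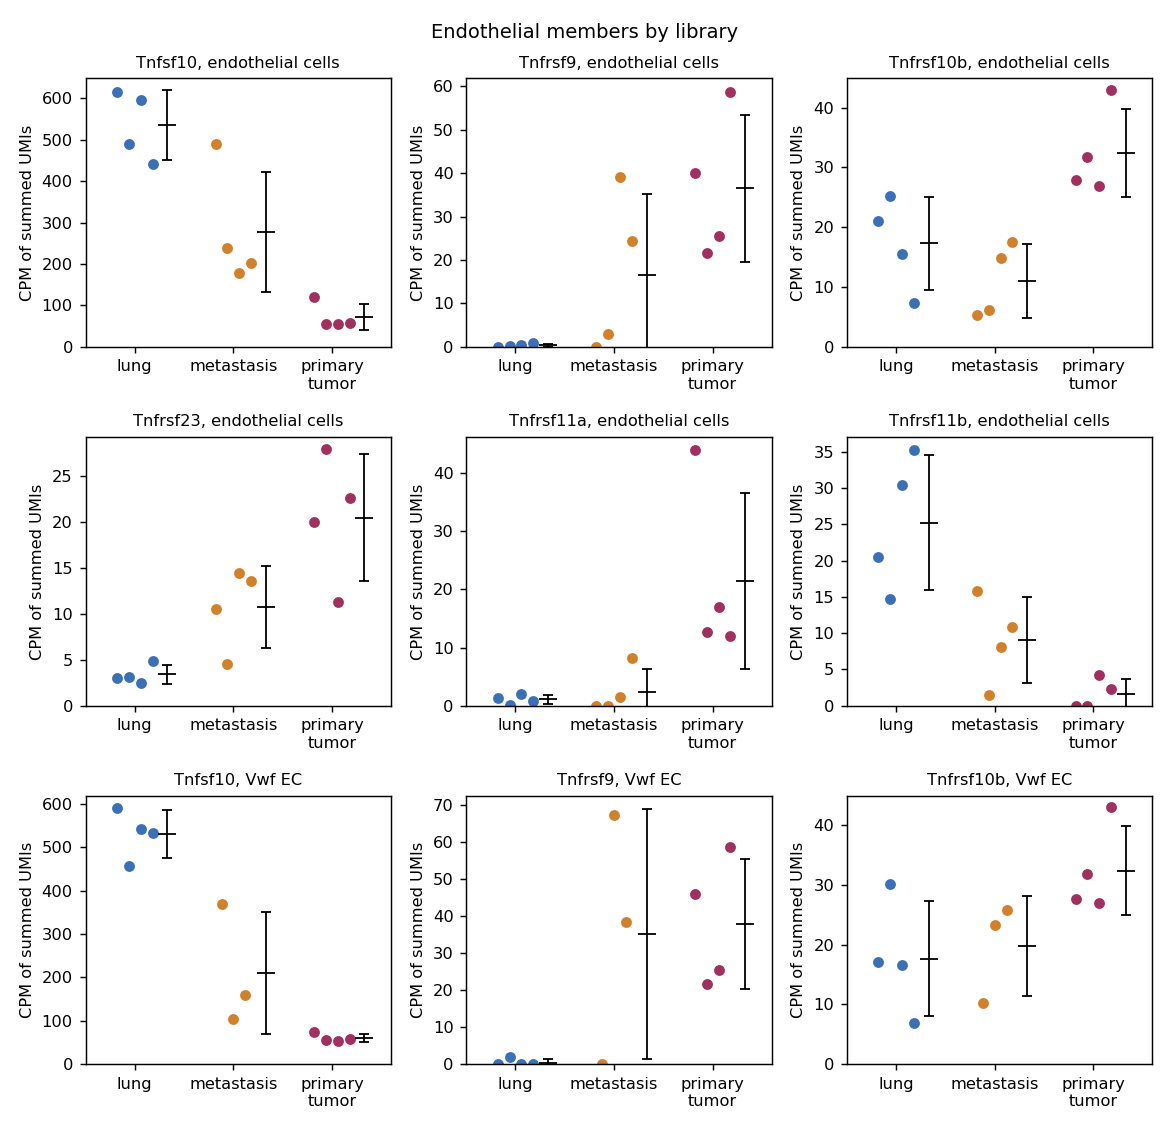
Level (CPM) of *Tnfsf10*, *Tnfrsf9*, *Tnfrsf23* and *Tnfrsf11b* in the ECs of each library of unchallenged lung, metastasis TME and primary tumor TME, with points for libraries and bars for the mean ± SD (cut at 0 where the SD exceeds the mean). *Tnfsf10* falls from 535 CPM on average in unchallenged lung to 71.9 CPM in primary tumor, and *Tnfrsf9* has its 4 primary tumor libraries above all 4 of unchallenged lung.

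*Tnfrsf23* rose in ECs as well. Its levels were 3.02, 3.16, 2.52 and 4.92 CPM in unchallenged lung, 10.5, 4.57, 14.4 and 13.5 CPM in metastasis and 20.0, 28, 11.4 and 22.6 CPM in primary tumor. Primary tumor did not overlap with lung, while metastasis replicate 4 did. It passed against unchallenged lung in primary tumor (log2 fold 2.79, SE 0.41, edgeR's adjusted p = 1.55e-04, but 1.57 with adjusted p = 0.0727 at clustering resolution 1.0) and in metastasis (log2 fold 1.90, SE 0.42, edgeR's adjusted p = 0.0196). The metastasis call did not hold with the replicate block (adjusted p = 0.0613) and was lost in 5 of the fits that left out 1 library, among them those without metastasis replicate 5 (adjusted p = 0.233) or 6 (adjusted p = 0.0659), and without unchallenged lung replicate 1, 4 or 5. It was also lost without the 2 shallowest libraries (adjusted p = 0.0535) and at resolution 1.0 (log2 fold 0.69, adjusted p = 0.672), where the ECs of unchallenged lung replicate 6 numbered 2773 in place of 553. Fibroblasts came after neutrophils in *Tnfrsf23*, and the summed level of 10 fibroblast markers in ECs was 54.2 to 529 CPM in unchallenged lung, 89.6 to 1064 CPM in metastasis and 747 to 2491 CPM in primary tumor. Their part in the *Tnfrsf23* result was not tested. *Tnfrsf11a* was at 1.34, 0.143, 2.02 and 0.819 CPM in unchallenged lung, 0, 0, 1.41 and 8.12 CPM in metastasis and 43.9, 12.7, 17 and 12.1 CPM in primary tumor, where replicate 1-3 was far above the other 3 and none overlapped with the other tissues. It passed in primary tumor against unchallenged lung (log2 fold 4.14, SE 0.76, edgeR's adjusted p = 8.94e-04). It also passed against metastasis (log2 fold -2.90 for metastasis, adjusted p = 0.0386), a call that any of 9 single libraries, when left out, took away, primary tumor replicate 1-3 among them (log2 fold -2.47, adjusted p = 0.106). The summed level of 10 C1q macrophage markers, the cells with the highest *Tnfrsf11a*, was 309.9 to 1434 CPM in ECs of primary tumor, 251 to 451 CPM in metastasis and 67.7 to 244 CPM in unchallenged lung, and its part in the result was not tested.

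Among the other receptors and ligands of ECs, *Tnfrsf11b* fell in primary tumor, from 20.4, 14.8, 30.4 and 35.2 CPM in unchallenged lung to 0, 0, 4.26 and 2.26 CPM (log2 fold -3.52, SE 0.64, edgeR's adjusted p = 8.57e-04), and *Tnfsf13* fell from 47.2, 47.3, 31.9 and 43.4 CPM to 28, 21.6, 18.4 and 9.05 CPM (log2 fold -1.17, SE 0.30, edgeR's adjusted p = 0.00869). Neither gene had overlapping libraries. Without the 2 shallowest libraries *Tnfsf13* did not pass (log2 fold -0.82, adjusted p = 0.0713). *Tnfrsf10b*, the TRAIL receptor DR5, was at 21.1, 25.2, 15.5 and 7.37 CPM in unchallenged lung, 5.27, 6.09, 14.8 and 17.6 CPM in metastasis and 28, 31.8, 27 and 43 CPM in primary tumor, where all 4 libraries were above the rest. It passed just under the threshold in both comparisons with primary tumor (adjusted p = 0.0487 against unchallenged lung and 0.0347 for metastasis, edgeR), and with the replicate block in neither (adjusted p = 0.0933 and 0.0713). Of 22 alternatives 15 lost the call against unchallenged lung and 10 lost that for metastasis. Leaving out 1 library took away the first call in 9 fits, with log2 folds of 0.79 (without unchallenged lung replicate 6) to 1.08 (without primary tumor replicate 5), and the second in 5 fits, those without metastasis replicate 1-3 or 4 or primary tumor replicate 4, 5 or 6. *Tnfrsf1a* stood at 258, 201, 164 and 153 CPM in unchallenged lung, 200.2, 209, 174 and 158 CPM in metastasis and 236, 216, 190.1 and 195 CPM in primary tumor, and passed in no comparison of ECs.

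The ECs of the 3 tissues were not the same mix. *Vwf*-high ECs made up 98.4% of ECs in primary tumor, 41% in metastasis and 15.9% in unchallenged lung, and the remainder were general capillary and aerocyte ECs. The comparisons were therefore repeated within the *Vwf*-high cluster, a choice made after seeing the data, with 10 members tested. This cluster was itself a mix. At resolution 1.0, 97.4% of its cells from unchallenged lung were large vessel EC-like, while 99.4% of those from primary tumor and 81.1% of those from metastasis were tumor EC-like. *Slc6a2* and *Vwf* were leading genes of the large vessel part and not of the tumor part, so *Vwf*-high names only the cluster as a whole. Tissue and kind of EC therefore cannot be told apart in this cluster either. There 5 passed between primary tumor and unchallenged lung (background 21.6%), 5 between metastasis and unchallenged lung (background 8.73%) and 1 between metastasis and primary tumor (background 3.52%). Within this cluster *Tnfsf10* was at 591, 458, 542 and 533 CPM in unchallenged lung, 369.8, 103 and 159.5 CPM in metastasis and 73.6, 56, 53.9 and 58.1 CPM in primary tumor. It passed in all 3 comparisons: primary tumor against lung (log2 fold -3.11, SE 0.32, edgeR's adjusted p = 3.90e-06), metastasis against lung (log2 fold -1.42, SE 0.34, edgeR's adjusted p = 0.0150) and metastasis against primary tumor (log2 fold 1.69, SE 0.35, edgeR's adjusted p = 0.00949).

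*Tnfrsf9* in the *Vwf*-high cluster had 1 UMI in all of unchallenged lung, 0, 67.3 and 38.6 CPM in metastasis and 46, 21.6, 25.5 and 58.8 CPM in primary tumor (adjusted p = 4.16e-04 for metastasis and 9.02e-05 for primary tumor against lung). *Tnfrsf11b* was under the count filter in this cluster, at 0, 0, 1.33 and 0 CPM in unchallenged lung and 0, 0, 4.26 and 2.26 CPM in primary tumor. *Tnfrsf23* rose in metastasis and in primary tumor (adjusted p = 0.0321 and 0.0173), although not with the replicate block in metastasis (adjusted p = 0.0538). *Tnfsf12* was lower in both (log2 folds -1.17 and -1.0), *Tnfrsf1b* lower in metastasis (log2 fold -1.45) and *Tnfsf13* lower in primary tumor (log2 fold -1.51). *Tnfrsf10b* passed in no comparison within this cluster. Markers of MM cells summed to 478 to 7822 CPM in ECs of metastasis, 224 to 1771 CPM in those of primary tumor and 1.72 to 6.56 CPM in unchallenged lung. Without the cells that held at least 2 MM markers, 6 members had enough counts, and 3 passed for primary tumor against lung, 2 for metastasis against primary tumor and 0 for metastasis against lung (1 at an unadjusted p under 0.05 by edgeR; DESeq2 was not run there). This step left 39 of 1178 ECs and 65831 of 2839885 UMIs in metastasis replicate 5, and in unchallenged lung it removed 1 cell. *Tnfsf10* was among the former 2 sets. *Tnfrsf9* was below the filter there, with 3, 13, 6 and 5 UMIs in the primary tumor libraries and 0, 2, 4 and 4 UMIs in those of metastasis, which is 23.4, 22.6, 14.2 and 27.4 CPM and 0, 5.11, 60.8 and 24.4 CPM.

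Fibroblasts of primary tumors differed from those of unchallenged lung in 5 of 14 members tested (3 libraries each, background 12.2%), with 2 higher and 3 lower. Fibroblasts of metastases could be tested in 2 libraries, and none of the 14 passed against primary tumor (background 1.09%) or against unchallenged lung (background 0.872%); at an unadjusted p under 0.05 there were 5 in either comparison by edgeR, and DESeq2 called 1 in each. The fibroblasts came from different clusters. Of those of unchallenged lung 98.1% were in the cluster led by *Inmt* and *Clec3b*. Of those of primary tumor 67.1% were in that led by *Ccl11*, *Lum* and *Postn* and 32.9% in that led by *Meg3* and *Col1a1*. The *Meg3* cluster held 65.5% of those of metastasis and 1.87% of those of unchallenged lung. It raised 9 of 10 fibroblast markers, but also 7 of 10 markers of pericytes or smooth muscle cells. The part of such cells in the fibroblast results was not tested. Unnamed clusters, with 1160 cells of metastasis TME beside 502 fibroblasts, were not part of this class.

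*Tnfrsf11b*, the RANKL decoy, went up in fibroblasts of primary tumor. It was at 0, 1.98 and 4.05 CPM in unchallenged lung replicates 4, 5 and 6, at 10.7, 112 and 26.2 CPM in primary tumor replicates 4, 5 and 6, all above lung, and at 20.5 and 31.5 CPM in metastasis replicates 5 and 6 (log2 fold 4.03, SE 0.93, edgeR's adjusted p = 0.0235 for primary tumor against lung). Primary tumor replicate 5 was the highest, and without it the call was lost (log2 fold 2.77, adjusted p = 0.0534), as it was without unchallenged lung replicate 5 or metastasis replicate 5 or 6. *Tnfrsf23* rose from 3.01, 5.95 and 15 CPM to 26.7, 41.8 and 49.9 CPM (log2 fold 2.07, SE 0.49, edgeR's adjusted p = 0.0253), a call lost without primary tumor replicate 5 or 6 or unchallenged lung replicate 5 (adjusted p up to 0.114). The summed level of 10 MM markers in fibroblasts was 0 to 8.11 CPM in unchallenged lung, 510.4 to 5033 CPM in primary tumor and 1018 to 4522 CPM in metastasis. Without the cells that held at least 2 of them, 7 members had enough counts for primary tumor against lung and 4 passed. *Tnfrsf23* was among these (log2 fold 2.40, adjusted p = 0.0428), with *Tnfrsf19*, *Tnfsf13* and *Tnfsf13b* below, while *Tnfrsf11b* was under the count filter there.

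**Figure D3:**
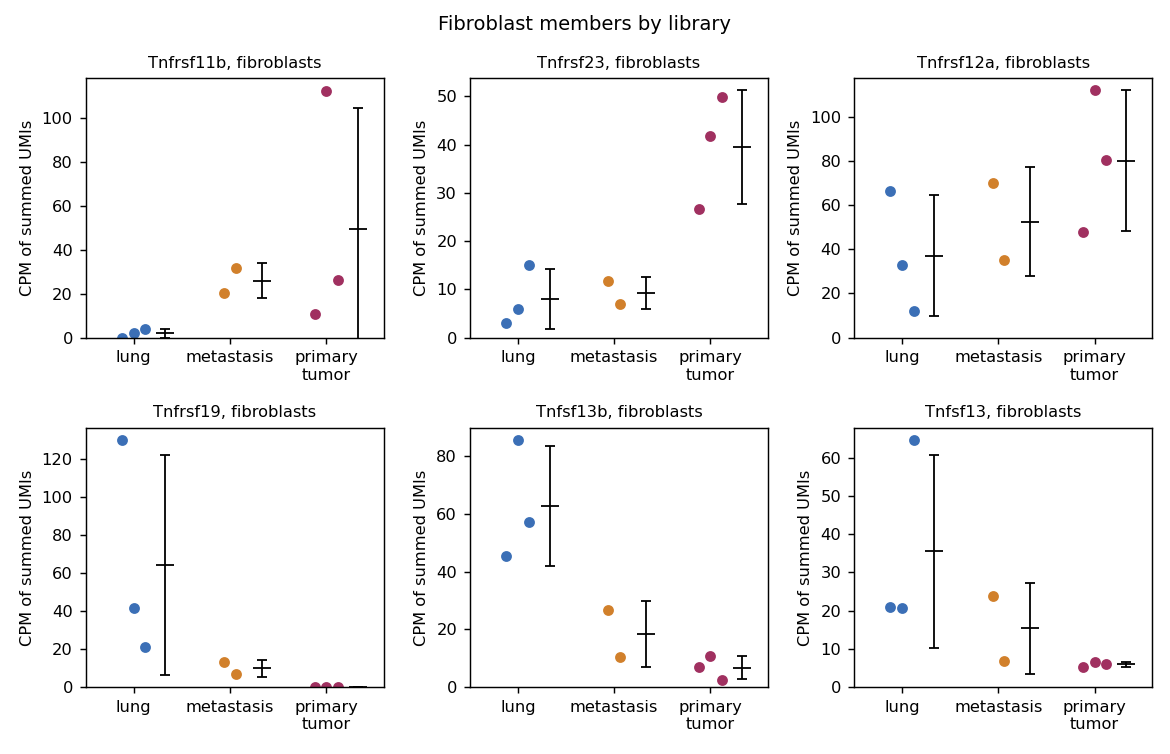
Level (CPM) of *Tnfrsf11b*, *Tnfrsf19*, *Tnfsf13b* and *Tnfrsf12a* in the fibroblasts of each library of unchallenged lung, metastasis TME and primary tumor TME, with points for libraries and bars for the mean ± SD (cut at 0 where the SD exceeds the mean). *Tnfrsf19* and *Tnfsf13b* sit lower in all 3 primary tumor libraries than in any library of unchallenged lung, and *Tnfrsf11b* sits higher.

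*Tnfrsf19*, a receptor linked to progenitor cells and neural tissue, was counted at 129.5, 41.7 and 21.2 CPM in fibroblasts of unchallenged lung, 13.3 and 7.0 CPM in metastasis and 0, 0 and 0.200 CPM in primary tumor, where a single UMI was found (adjusted p = 0.00261, edgeR). Both metastasis libraries lay between those of the other tissues, and metastasis against primary tumor passed with the replicate block (adjusted p = 0.0165) but not without it (adjusted p = 0.0532). *Tnfsf13b* fell from 45.2, 85.3 and 57.2 CPM in unchallenged lung to 7.11, 10.8 and 2.6 CPM in primary tumor (log2 fold -3.38, SE 0.59, edgeR's adjusted p = 0.00871). Both calls held when any 1 library was left out. *Tnfsf13* fell from 21.1, 20.8 and 64.6 CPM to 5.33, 6.75 and 6.01 CPM (log2 fold -2.59, SE 0.58, edgeR's adjusted p = 0.0218), and this call was lost without unchallenged lung replicate 6 (log2 fold -1.74, adjusted p = 0.0588) and without any 1 of the primary tumor libraries. C1q macrophages, the highest in *Tnfsf13b*, left a summed marker level of 1365 to 2186 CPM in fibroblasts of unchallenged lung and 165 to 1331 CPM in those of primary tumor, and neutrophils 717 to 6995 and 33.7 to 76.5 CPM; their part in the result was not tested. *Tnfrsf12a*, at 66.3, 32.7 and 12.2 CPM in unchallenged lung, 69.9 and 35 CPM in metastasis and 48, 112 and 80.3 CPM in primary tumor, passed in no comparison.

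Macrophages of primary tumors and of unchallenged lung differed in 7 of 19 members tested (2 against 4 libraries, background 15.6%), with *Tnfrsf11a*, *Tnfrsf13b*, *Tnfrsf9* and *Tnfsf9* higher and *Tnfrsf22*, *Tnfrsf26* and *Tnfsf10* lower in primary tumor. Metastasis differed from unchallenged lung in 1 of 19, *Tnfsf9* (background 1.89%), and from primary tumor in none (background 0.673%; 4 at an unadjusted p under 0.05 by edgeR, and 0 by DESeq2). *Tnfsf9*, the ligand of 4-1BB, was at 0.679, 2.77, 3.39 and 1.09 CPM in unchallenged lung, 7.80, 26, 4.73 and 17.2 CPM in metastasis and 17.1 and 19.7 CPM in primary tumor (log2 fold 3.65, SE 0.53, edgeR's adjusted p = 8.62e-04 for primary tumor against lung, and adjusted p = 0.0247 for metastasis against lung). Both tumor tissues lay above all libraries of lung. The primary tumor call held without any 1 library, whereas the metastasis call was lost without unchallenged lung replicate 6, metastasis replicate 6 or either primary tumor library. *Tnfrsf9*, its receptor, was at 0.679, 1.39, 0 and 1.32 CPM in unchallenged lung and 13.1 and 12.6 CPM in primary tumor (log2 fold 3.90, SE 0.67, edgeR's adjusted p = 0.00212), and was not called without primary tumor replicate 4 (adjusted p = 0.0523).

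*Tnfrsf11a*, a receptor of the osteoclast and dendritic lineages, was at 17, 22.2, 17.4 and 18.2 CPM in macrophages of unchallenged lung, 28.7, 58.6, 18.9 and 22.9 CPM in metastasis and 51.5 and 47.6 CPM in primary tumor (log2 fold 1.60, SE 0.26, edgeR's adjusted p = 0.00161 for primary tumor against lung), and *Tnfrsf13b* at 24.4, 26.3, 33.4 and 38.6, 40.0, 45.5, 28.4 and 24.8, and 46.4 and 72.3 CPM (log2 fold 1.11, SE 0.26, edgeR's adjusted p = 0.0121). *Tnfsf10* was at 6.11, 18, 62.5 and 58.7 CPM in unchallenged lung and 3.99 and 2.41 CPM in primary tumor (log2 fold -3.50, SE 0.78, edgeR's adjusted p = 0.00885). This call was lost without primary tumor replicate 1-3 (adjusted p = 0.0701) or 4 (adjusted p = 0.165) and at resolution 1.0 (log2 fold -1.57, adjusted p = 0.189), and with the replicate block the log2 fold was -1.95 (adjusted p = 0.0380). For the 7 members called the 2 tissues did not overlap, which comes from the same values as the calls and is no separate support. The share of all genes without overlap was not counted. The decoy gene *Tnfrsf22* (log2 fold -2.40, adjusted p = 0.0229) and its neighbor *Tnfrsf26* (log2 fold -2.45, adjusted p = 0.0340) were low throughout, at no more than 16.3 CPM in any library of unchallenged lung. Both calls were lost without either primary tumor library, and that of *Tnfrsf26* also without unchallenged lung replicate 5 or 6 (adjusted p up to 0.392).

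These differences came with a change in the kind of macrophage. C1q macrophages were 100.0% of macrophages in primary tumor, 63.2% in metastasis and 9.04% in unchallenged lung, and the rest were in clusters named alveolar macrophage. The larger of these held 84% of the macrophages of unchallenged lung. It raised 11 of 11 alveolar macrophage markers, but also 5 of 9 aerocyte EC markers. At resolution 1.0 a cluster of 2414 cells was named aerocyte EC while raising 8 of 11 alveolar macrophage markers. The part of EC-like cells in the macrophage results was not tested. Markers of other cells differed too. MM markers in macrophages summed to 299 to 412 CPM in primary tumor, 235 to 3352 CPM in metastasis and 1.39 to 8.15 CPM in unchallenged lung. Neutrophil markers summed to 118 to 163, 78.1 to 1731 and 79 to 6266 CPM. Their part in the results was not tested. The cells of the C1q cluster were not 1 type. With leukocytes clustered again, 71.3% of them in primary tumor, 50.7% in metastasis and 54.4% in unchallenged lung were C1q macrophages. Dendritic cells were 8.76%, 8.51% and 33.2%. A further 18.2% in primary tumor and 39.4% in metastasis were left unnamed, which unchallenged lung did not have. The unnamed subcluster drawn mainly from this cluster was led by *Arg1*, *Spp1* and *Thbs1*. Within the C1q cluster alone, added after seeing the data, 10 members were tested. Of the 7 members called over all macrophages between primary tumor and lung, *Tnfrsf11a* and *Tnfrsf13b* were among these 10, and the other 5 (*Tnfrsf9*, *Tnfrsf22*, *Tnfrsf26*, *Tnfsf9* and *Tnfsf10*) were under the count filter. Only *Tnfsf13b*, not one of the 7, passed, and in primary tumor against unchallenged lung alone (background 8.71%): it was at 77.9, 55.3, 77.3 and 61.6 CPM in unchallenged lung and 28.7 and 28 CPM in primary tumor (log2 fold -1.19, SE 0.35, edgeR's adjusted p = 0.0419). This call was lost with the replicate block (adjusted p = 0.198) and with leukocytes clustered again (adjusted p = 0.108). None passed between metastasis and lung (background 7.54%; 1 at an unadjusted p under 0.05 by edgeR) or metastasis and primary tumor (background 0.0%; 0 at an unadjusted p under 0.05); DESeq2 was not run on these. *Tnfrsf11a*, which rose by 1.60 on the log2 scale over all macrophages, had a log2 fold of -0.02 within the C1q cluster (adjusted p = 0.978), and *Tnfrsf13b* 1.11 and 0.17 (adjusted p = 0.786). With the replicate block *Tnfrsf13b* (adjusted p = 0.0690) and *Tnfrsf22* (adjusted p = 0.0655) were not called over all macrophages either. The *Tnfrsf13b* call was lost in 4 of its 22 alternatives, and its fold reversed in 1. Without primary tumor replicate 4, 2 members were called in place of 7, and without replicate 1-3, 4 were.

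*Tnf* itself passed in no comparison of macrophages or neutrophils. In macrophages it was at 19.7, 31.9, 35.4 and 47.5 CPM in unchallenged lung, 23.9, 104, 14.2 and 51.5 CPM in metastasis and 26.9 and 46.4 CPM in primary tumor. In neutrophils it was at 40.2, 19.6, 61.9 and 86 CPM in unchallenged lung, 103, 66 and 138 CPM in metastasis replicates 1-3, 5 and 6 and 79.6 and 116 CPM in primary tumor, and metastasis against unchallenged lung gave an adjusted p of 0.107 (edgeR). The libraries of the 3 tissues overlapped in both classes. In neutrophils each metastasis and primary tumor library was above the unchallenged lung library of its own number (1 for 1-3), though *Tnf* passed in no comparison there. Metastasis replicate 5, with 41 cells, had none called neutrophils once leukocytes were clustered again. Without it the adjusted p was 0.0926 for *Tnf* in metastasis against unchallenged lung.

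In neutrophils 7 members were tested and 1 passed, *Tnfrsf26*, in metastasis against unchallenged lung (3 against 4 libraries, background 7.39%) and in primary tumor against unchallenged lung (2 against 4 libraries, background 3.89%). It was at 0, 4.90, 3.95 and 8.77 CPM in unchallenged lung, 18.3, 0 and 42 CPM in metastasis and 79.6 and 45.4 CPM in primary tumor, where both libraries lay above those of lung while metastasis overlapped with lung (log2 fold 2.33, SE 0.67, edgeR's adjusted p = 0.0479 for metastasis and adjusted p = 0.0142 for primary tumor). Neither call held with the replicate block (adjusted p = 0.228 and 0.0867). The first was lost without unchallenged lung replicate 5 or 6, primary tumor replicate 4 or metastasis replicate 6, where the log2 fold was 1.32, while without metastasis replicate 5 it stood (log2 fold 2.59, adjusted p = 0.0123). The second was lost without unchallenged lung replicate 5 or primary tumor replicate 4. Metastasis against primary tumor gave 0 of 7 (background 0.0432%; 1 at an unadjusted p under 0.05 by edgeR, 0 called by DESeq2). MM markers summed to 814 to 8610 CPM in neutrophils of metastasis, the highest in replicate 5, 902 to 919 CPM in primary tumor and 0 to 5.85 CPM in unchallenged lung. Without the cells holding at least 2 MM markers no member passed in metastasis against lung. C1q macrophage markers summed to 543 to 958, 717 to 3274 and 321 to 1087 CPM in these 3 tissues, and their part in the results was not tested.

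T cells could be compared between metastasis (2 libraries) and unchallenged lung (3 libraries), and too few were found in primary tumor. None of 16 members tested passed (background 0.0113%; 1 at an unadjusted p under 0.05 by edgeR, 0 called by DESeq2). That 1 was *Tnfrsf9*, at 50.4 and 18.8 CPM in metastasis and 4.34, 2.68 and 3.75 CPM in unchallenged lung (unadjusted p = 0.00727, adjusted p = 1.000). *Tnfrsf4* in T cells was at 164 and 21.1 CPM in metastasis and 31.4, 8.03 and 20.3 CPM in unchallenged lung, which overlap, with 1 metastasis library far above the rest. *Tnfrsf18* was at 113 and 91.5 CPM and 92.6, 69.6 and 38.3 CPM, which overlap too.

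In sorted MM cells 19 members had enough counts to be tested, and the Fn14 and TNFR1 genes are given first. Over the 2 metastasis and 2 primary tumor libraries *Tnfrsf12a* was at 115 and 75.5 CPM in metastasis and 75.5 and 46.2 CPM in primary tumor, and *Tnfrsf1a* at 40.6 and 69.8 CPM and 81.1 and 99.8 CPM. *Tnfrsf19* was at 11.6 and 6.87 CPM and 6.52 and 5.33 CPM, and *Tnfrsf11b* at 9.43 and 12.4 CPM and 8.40 and 9.35 CPM. The lower metastasis value lay close to the higher primary tumor value for *Tnfrsf19* (6.87 and 6.52 CPM) and *Tnfrsf11b* (9.43 and 9.35 CPM), and the ranges of *Tnfrsf12a* touched. The share of all genes without overlap was not counted. Metastasis replicate 4 held 272 MM cells among 638 cells, against 30319 MM cells in primary tumor replicate 4. Within the libraries numbered 4, and again within those numbered 5, *Tnfrsf12a* was higher in metastasis and *Tnfrsf1a* lower. None of the 19 members passed between them (background 0.00701%; 0 at an unadjusted p under 0.05 by edgeR, 0 called by DESeq2). With the replicate number as a block none passed either (4 at an unadjusted p under 0.05). For *Tnfrsf12a* the log2 fold was 0.60 (SE 0.40) and for *Tnfrsf1a*, where both primary tumor libraries were higher, -0.70 (SE 0.35).

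Genes around the family were read from 3 lists: 23 signalling genes (TRAF and RIP adaptors, caspase-8, IκB kinases and NF-κB subunits), 12 genes known to respond to NF-κB, and the 14 superfamily genes with other symbols. In leukocytes against other host cells, 15 of 23 signalling genes were higher and none lower, with a median log2 fold of 0.76 against 0.09 over all genes, and of 11 response genes tested 7 were higher and 2 lower (median 0.91), where 32.4% of all genes were higher and 25.7% lower. *Rel*, an NF-κB subunit, had a log2 fold of 2.44 and the NF-κB inhibitor *Tnfaip3* 2.34, while *Vcam1*, an adhesion molecule, had -2.11 and *Icam1* -0.84.

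In ECs of primary tumor against unchallenged lung, 3 of 11 response genes were higher and 2 lower, where 27.8% of all genes passed (median log2 fold 0.35, against -0.03 over all genes). *Ccl2*, a monocyte chemokine, had a log2 fold of 5.77, *Nfkbiz* 1.43 and *Nfkbie* 1.23, while *Tnfaip3* had -1.44 and *Irf1*, an interferon-induced factor, -2.05. *Ccl2* rested on 241 UMIs in ECs of primary tumor and 19 in those of lung, beside 7983 UMIs in macrophages and 3173 in fibroblasts of primary tumor. The C1q macrophage and fibroblast markers in ECs were both higher in primary tumor than in lung, as given above, and their part in the *Ccl2* result was not tested. Among the 23 signalling genes, with a share that passed near that of all genes, 3 were higher (*Traf1* 2.59, *Relb* 0.94, *Nfkb2* 0.83) and 3 lower (*Traf5* -1.47, *Rela* -1.11, *Tab2* -0.82). The death receptor *Fas* had a log2 fold of -3.74. The lists were not read within the *Vwf*-high cluster, so kind of EC and tissue cannot be told apart in the list results of ECs. In metastasis against primary tumor, *Irf1* (1.46) and *Fas* (3.66) were higher and *Ccl2* (-3.73) and *Traf1* (-2.93) lower, and in metastasis against unchallenged lung no gene of the 3 lists passed.

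In fibroblasts of primary tumor against unchallenged lung, 2 of 12 response genes were higher (*Ccl2* 5.51 and *Cxcl1* 4.24) and 1 lower (*Vcam1* -2.29), where 12.2% of all genes passed, with a list median of -0.14 against -0.05 over all genes. *Relb* (1.24) was the 1 of 23 signalling genes that passed, and of 7 superfamily genes with other symbols *Ltb* (3 UMIs in all of primary tumor), *Cd40* (-2.12) and *Fas* (-1.96) were lower. In these fibroblasts 9 B cell markers summed to 31.8 to 1250 CPM in unchallenged lung and 0 to 12.4 CPM in primary tumor, and 9 T cell markers to 10.9 to 177 CPM and 2.70 to 8.002 CPM. Their part in the result was not tested. *Vcam1* was the only gene of the lists that passed between metastasis and primary tumor (2.38), and none passed between metastasis and lung. In macrophages of primary tumor 5 of 12 response genes were higher than in unchallenged lung, where 15.6% of all genes passed (*Ccl2* 5.70, *Cxcl1* 2.89, *Bcl3* 2.07, *Nfkbie* 1.12 and *Sod2* 0.91; median 0.49 against -0.02 over all genes), no signalling gene passed, and *Cd40* was higher (2.00) and *Ltb* lower (-2.59). In metastasis against lung *Ccl2* (4.28) and *Bcl3* (1.18) were higher. The kinds of macrophage differed between the tissues, as given above, and the lists were not read within the C1q cluster. Kind of macrophage and tissue therefore cannot be told apart in these list results. No gene of the 3 lists passed in neutrophils, T cells or sorted MM cells, or in macrophages between metastasis and primary tumor.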

How the data were processed

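The authors deposited a count table of UMIs per gene and cell, made with Cell Ranger 6.1.1 on GRCm38 (mm10) from 10x 3' libraries of cryopreserved cells, after they removed cells by quantiles of detected genes and of mitochondrial and ribosomal shares; their notes also name Seurat 3.2.2. Their log-normalized table was not used. Of 24 library names 5 were identical to another and were counted once (110283 barcodes, 9924 removed). These carry other labels: replicates 5 and 6 of metastasis and primary tumor TME stand again as replicates 7 and 8, of mice 21 and 22, and metastasis MM replicate 6 equals metastasis TME replicate 6. In 6 names the replicate number differs from the title, and these were matched by tissue, mouse and run. No doublet caller was run.

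Cells were clustered with Seurat 5.3.0 (2000 variable genes without the members, 17 principal components, 20 neighbors, resolution 0.5) and clusters named from marker lists. Leukocytes were clustered again at resolution 1.0 for levels by type. Counts were summed per library and class with at least 20 cells and fitted with edgeR 4.0.16 (filterByExpr, TMM, quasi-likelihood, 1 fit per class over the 3 tissues, Benjamini-Hochberg over all genes tested, adjusted p under 0.05), with the library as a block for leukocytes against other host cells. DESeq2 1.42.0 was an alternative. R was 4.3.3. The fit was also run on simulated counts, whose outcome is not given or used here.

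By their names, libraries with the same replicate number shared a run, and 5 and 6 both came from run 3. The names do not say what a run was. By the names kept, replicates 1-3, 5 and 6 also shared mice between metastasis and primary tumor, which is uncertain for 5 and 6. The replicate block was therefore fitted beside the main design. Over 34 pairs the correlation of deviations was -0.21 to 0.34, and 16 were over 0.1.

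Named members are *Tnf*, *Tnfrsf1a*, *Tnfrsf1b*, every member called and every member at 20 CPM in a cell type. Members and lists were chosen with earlier results of these data known. The comparisons within the *Vwf*-high ECs and the C1q cluster, with leukocytes clustered again, and without the shallowest libraries were added after seeing the data.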

Additional observations from a re-analysis of the deposited data

Results flagged for a closer look

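Of 36 groups of 4 libraries checked for called members, 3 had 1 library far outside the others by Dixon's criterion, where chance gives about 1 in 20. In macrophages of unchallenged lung *Tnfrsf22* was at 7.27 CPM in replicate 5, against 5.43 to 5.69 CPM in the other 3. In ECs of primary tumor, replicate 1-3 was the outlying library for both *Tnfrsf11a*, at 43.9 CPM against 12.1 to 17 CPM, and *Tnfsf10*, at 119.8 CPM against 53.9 to 58.1 CPM.

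Between primary tumor and unchallenged lung, 2 members moved in opposite directions in different cell classes, and the difference between the classes was not tested. *Tnfrsf11b* had a log2 fold of 4.03 in fibroblasts and of -3.52 in ECs. Aerocyte ECs, the cells highest in *Tnfrsf11b*, were 22.3% of ECs in unchallenged lung and 0.361% in primary tumor, and within the *Vwf*-high cluster the gene was under the count filter. *Tnfrsf26* had a log2 fold of -2.45 in macrophages and of 3.40 in neutrophils.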

How the results depend on the processing

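Of 41 calls of members, 21 held in every alternative run for them; over 755 alternative values 652 kept the call, 99 lost it and 4 reversed. The reversed values were *Tnfrsf11a* in macrophages of primary tumor against lung, with log2 folds of -0.022, -0.035 and -0.093 within the C1q cluster alone (without and with the replicate block, and with leukocytes clustered again), and *Tnfrsf13b*, at -0.053 within the C1q cluster with the block; restriction to that cluster is what these share. The number of members called moved by over 1.5 times as follows, with comparisons named by cell class (MP for metastasis against primary tumor, ML for metastasis against lung, PL for primary tumor against lung).

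In fibroblasts MP went from 0 to 1 with DESeq2, to 2 without the count filter and to 1 with the replicate block, and ran from 0 to 2 with 1 library left out. ML went from 0 to 1 with DESeq2, without the filter and without the 2 shallowest libraries, and ran from 0 to 1. PL went from 5 to 11 without the filter and ran from 2 to 6, with 2 without primary tumor replicate 5 and 3 without replicate 6.

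In macrophages ML went from 1 to 3 without the filter and to 0 with at least 50 cells, without cells holding 2 MM markers, without the 2 shallowest libraries, with leukocytes clustered again and in the C1q cluster alone (also with the replicate block and clustered again), and ran from 0 to 2. PL went from 7 to 1 in the C1q cluster alone, where 2 of the 7 had enough counts and the 1 was *Tnfsf13b*, another member, to 0 there with the block or clustered again, and ran from 2 to 7.

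In ECs MP went from 3 to 1 at resolution 1.0, without the 2 shallowest libraries and in the *Vwf* cluster alone, with and without the replicate block, and ran from 1 to 3. ML went from 2 to 1 at resolution 1.0 and without the 2 shallowest libraries, to 0 without cells holding 2 MM markers and to 5 in the *Vwf* cluster alone, and ran from 1 to 3. PL went from 7 to 3 without cells holding 2 MM markers, where 6 members had enough counts, and to 4 without the 2 shallowest libraries, and ran from 6 to 8.

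In neutrophils ML went from 1 to 0 with DESeq2, with the replicate block, without cells holding 2 MM markers and without the 2 shallowest libraries, and to 2 without the filter, and ran from 0 to 2. PL went from 1 to 2 without the filter and with leukocytes clustered again and to 0 with the block, and ran from 0 to 2. For leukocytes against other host cells the count went from 14 to 22 without the filter and ran from 11 to 15. Except where the construction shows it (more or fewer genes or cells), the cause was not tested. The replicate block changed no call beyond those given. For T cells the block by replicate number left no residual degrees of freedom, and a block by run was not fitted. Where leaving out 1 library left a tissue with 1, that library was assumed to vary like those of the other groups.

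Of 72 levels set against their alternatives 1 moved by over 1 SD (*Tnfsf13* in alveolar macrophages, 235 CPM with members kept among the variable genes). Of 14 shares of cells 9 moved with the depth cells were thinned to. Members under 20 CPM, and classes of few cells such as T cells in metastasis, rest on few UMIs; lower cell numbers and less RNA per cell cannot be told apart from a sum. At these depths a member that did not pass was not detectably different, which does not show equal levels.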
